A study of Homo sapiens with 15 samples.

Results

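The genes described here are the well-expressed members of the ZNF series, the largest set of human genes named for zinc fingers, in RPE1-hTERT cells that overproduced cyclin E1. They were chosen by name (ZNF, a number and at most 1 letter) and selected on their mean TPM (transcripts per 1000000) over all 15 RNA-seq libraries, which had to reach 10 and kept 86 genes of 554 with such a name and of 60558 genes in the table. RPE1-hTERT is an established human retinal pigment epithelial line immortalized with telomerase, and the line used is a clone that carries a doxycycline-inducible CCNE1 cDNA, also in the controls. There were 3 libraries each of control cells without doxycycline, of acute cells after 2 d of induction, of crisis cells labelled 15, 18 and 18 d, of adapted cells labelled 39, 41 and 51 d, and of recovery cells labelled 31, 42 and 46 d on doxycycline and then 18, 46 and 17 d without it. Doxycycline was given at 20 ng/ml. The replicates were adaptations begun independently from that 1 clone.

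Most ZNF proteins hold C2H2 zinc fingers, short folds in which a pair of cysteines and a pair of histidines grip a zinc ion and which read DNA base by base when they stand in a row. Many also carry a KRAB domain, which recruits TRIM28 (KAP1) and through it SETDB1, HP1 proteins and histone deacetylases, and the main known duty of such proteins is to silence transposable elements. KRAB zinc finger genes lie in clusters, above all on chromosome 19. Other ZNF proteins bind promoters, RNA, ribosomes or the spindle, so that the series shares a fold rather than a pathway.

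Of the 86 members, 81 held at least 1 C2H2 pattern in the protein translated from the GENCODE 44 canonical transcript, and 18 of these also held the letters that mark the end of the KRAB A box. The letter match misses some KRAB proteins, so the 63 others are called C2H2 members without KRAB letters. ZNF330, ZNF703 and ZNF720 had no match to the pattern, and ZNF252P and ZNF271P are pseudogenes with no coding sequence. KRAB members held a median of 13.5 C2H2 patterns and members without KRAB letters a median of 6. Chromosome 19 held 19 members, among them 8 of the 18 KRAB members, and chromosome 16 held 9.

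Promoters are shown first for ZNF580 and ZNF593, whose levels stood lower after induction, for ZNF512, whose level stood higher, and for ZNF302, the most abundant member. Each line gives the 250 bases before the transcription start from RefSeq on GRCh38.p14, and capitals mark matches to the GC box, the CCAAT box and the ETS motif, whose letters are spelled out after the lines.
ZNF580, chr19:55640752-55641001, plus strand: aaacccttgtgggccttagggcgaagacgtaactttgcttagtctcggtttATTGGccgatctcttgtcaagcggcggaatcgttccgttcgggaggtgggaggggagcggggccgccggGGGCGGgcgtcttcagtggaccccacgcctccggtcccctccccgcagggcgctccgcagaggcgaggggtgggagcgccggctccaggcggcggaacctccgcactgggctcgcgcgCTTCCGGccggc
ZNF593, chr1:26169658-26169907, plus strand: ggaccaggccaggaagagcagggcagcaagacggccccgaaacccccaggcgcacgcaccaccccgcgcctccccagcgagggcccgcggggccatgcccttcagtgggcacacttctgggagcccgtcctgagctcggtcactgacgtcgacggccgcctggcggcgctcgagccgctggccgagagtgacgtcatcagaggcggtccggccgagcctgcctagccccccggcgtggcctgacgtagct
ZNF512, chr2:27582792-27583041, plus strand: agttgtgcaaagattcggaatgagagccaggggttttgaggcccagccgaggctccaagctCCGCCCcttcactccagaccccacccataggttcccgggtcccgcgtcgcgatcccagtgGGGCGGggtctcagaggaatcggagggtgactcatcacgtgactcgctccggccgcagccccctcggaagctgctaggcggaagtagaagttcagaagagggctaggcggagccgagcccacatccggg
ZNF302, chr19:34677428-34677677, plus strand: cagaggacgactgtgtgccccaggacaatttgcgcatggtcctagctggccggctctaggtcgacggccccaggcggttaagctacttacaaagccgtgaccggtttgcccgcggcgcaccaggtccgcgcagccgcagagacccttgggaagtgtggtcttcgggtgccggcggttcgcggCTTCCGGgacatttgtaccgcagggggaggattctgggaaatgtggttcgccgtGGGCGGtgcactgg
ZNF580 held 1 GC box, 1 CCAAT box and 1 ETS motif in these bases, ZNF512 held 2 GC boxes, ZNF302 held 1 GC box and 1 ETS motif, and ZNF593 held none of them before its start. In GENCODE 44 ZNF580 spans 55635016 to 55643470 and ZNF581 55635459 to 55645623. The window shown for ZNF580 lies inside both spans, before an internal start. RefSeq windows of 300 bases, 250 before and 50 after the start, were found for 73 members, and the first one listed was used for each gene. ZNF827 was among the 13 without one.

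The motif counts described the promoters and were read on either strand, with no overlap between matches of different motifs in any member window. GGGCGG, the GC box, was in 67.1% of the 73 member windows, 72.0% of the 7955 windows of tested genes and 44.6% of all 27305 windows. CCAAT was in 34.2% of member windows, 37.2% of windows of tested genes and 35.7% of all windows. CCGGAAG, bound by ETS factors, was in 28 member windows, or 38.4%, against 21.7% of windows of tested genes and 10.7% of all windows. GCGCATGC, the NRF1 motif, was in 11.0% of member windows, 6.13% of windows of tested genes and 3.27% of all windows. The cell cycle motifs TTTCCCGC and TTTGGCGC, read by E2F factors, were in 2 member windows each (2.74%), where the shares were 2.93% and 1.23% of windows of tested genes and 1.66% and 0.659% of all windows. TTTGAA, the CHR element of mitotic genes, was in 9.59% of member windows, 9.42% of windows of tested genes and 15.4% of all windows. AAGATGGCG, bound by YY1, was in 3 member windows (4.11%), 4.65% of windows of tested genes and 1.85% of all windows. ACTACAATT, part of the motif read by ZNF143, itself a member, was in 4 member windows (5.48%), 0.654% of windows of tested genes and 0.370% of all windows. Counts of 2 to 4 windows are small, and a match of letters does not show binding.

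The induced gene followed the labels. CCNE1 had 7.09, 6.27 and 7.88 TPM in control cells, 163, 154 and 136 TPM in acute cells, 44.9, 32.9 and 38.9 TPM in crisis cells, 43.3, 42.6 and 42.6 TPM in adapted cells and 5.52, 5.49 and 5.93 TPM in recovery cells. Every acute, crisis and adapted library stood above every control library, and all 3 recovery libraries stood below the 3 control libraries. TPM keeps no depth, so the reads behind a value are unknown and no counting interval was computed. Libraries had 26841 to 28725 genes above 0 TPM. Of the markers of pigment epithelium, MITF, OTX2 and PAX6 had means of 18.5, 16.5 and 30.5 TPM, while RPE65, the defining enzyme of mature pigment epithelium, was listed at 0 in all 15 libraries. The other 8 of the 12 markers on that list were at or near 0, with means of 0.0272 TPM (TYR) to 2.43 TPM (SERPINF1). The keratins KRT8 and KRT18 had means of 475 and 363 TPM, but the epithelial genes KRT19, CDH1 and EPCAM had 0.279, 0.148 and 0.0635 TPM. Mesenchymal genes were unequal, with 4482 TPM for VIM, 1807 for FN1, 344 for THY1, 144 for CDH2, 13.9 for COL1A1 and 0.0884 TPM for COL1A2. Tests were run with limma on log2(TPM + 1) over the 10196 genes that averaged 5 TPM or more, which includes every member by the choice of members. Calls were made at an adjusted p under 0.01 by the Benjamini-Hochberg method.

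ZNF302 alone made up 24.3% to 32.8% of the summed TPM of the 86 members in the 15 libraries. The members summed to 2347 to 2403 TPM in control, 2455 to 2717 for acute, 2549 to 2748 for crisis, 2573 to 2693 for adapted and 2548 to 2585 TPM for recovery libraries. The sums of all 12 later libraries were thus above those of the 3 control libraries, with group means of 2583 ± 131 TPM for acute, 2655 ± 100.3 for crisis, 2616 ± 67.3 for adapted and 2562 ± 20.4 for recovery cells, against 2370 ± 29.0 TPM in control cells (SD, n = 3 each). As a share of all TPM this was 0.246% to 0.275% over the 12 later libraries, against 0.235% to 0.240% in control libraries. All genes tested also had median log2 fold changes above 0 against control, 0.063, 0.076, 0.051 and 0.081 in the same order of groups. Median-of-ratios factors, which scale a library by its typical gene, were 0.937, 0.961 and 0.993 in control libraries and 0.969 to 1.047 in later ones. The sums were not divided by these factors, and the part of this shift in them was not tested. Without ZNF302 the sums were 1762 to 1915 TPM for acute, 1817 to 1946 for crisis, 1728 to 1904 for adapted and 1797 to 1956 TPM for recovery libraries, against 1684 to 1786 TPM in control libraries, so that acute and adapted libraries overlapped with control libraries and the others did not.

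ZNF302, a KRAB zinc finger gene (chromosome 19, 34677639 to 34686397, plus strand, GRCh38), had a mean of 738 TPM, and ZNF207, the next member, 121 TPM. ZNF302 had 676, 655 and 617 TPM in control cells, 662, 693 and 891 TPM in acute cells, 732, 840.02 and 802 TPM in crisis cells, 845, 789 and 781 TPM in adapted cells and 750.2, 710.2 and 629 TPM in recovery cells. All crisis and adapted libraries lay above all control libraries, while recovery and control libraries overlapped. Its log2 fold change was 0.28 ± 0.10 in crisis and 0.31 ± 0.10 in adapted cells against control (SE), with limma adjusted p of 0.332 and 0.128, so neither passed. Recovery libraries lay below every adapted library, with a log2 fold change of -0.21 ± 0.10 and an adjusted p of 0.708 by limma. Of the 31-base words of its transcripts, 27.03% also occur in other genes, 20.6% in ZNF181, so part of its level depends on how reads were divided between such genes.

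Below ZNF302 the levels dropped steeply. ZNF207 and ZNF706 were above 100 TPM, ZNF664 averaged 92.2 TPM, 26 members lay between 20 and 50 TPM, and 56 lay below 20 TPM, with a median of 15.5 TPM over the 86 means. ZNF207, known as BuGZ, loads BUB3 onto kinetochores and helps build the spindle. It had 109, 114 and 120.1 TPM in control cells, 122, 119.8 and 136 TPM in acute cells, 115, 119 and 134 TPM in crisis cells, 118, 127 and 119 TPM in adapted cells and 120.1, 121 and 126 TPM in recovery cells, and its highest group mean was 1.10-fold the lowest. ZNF706 encodes a very small zinc finger protein and averaged 109 ± 5.10, 107 ± 3.33, 104 ± 7.53 and 110.1 ± 5.65 TPM in acute, crisis, adapted and recovery cells, against 101 ± 4.61 TPM in control cells (SD, n = 3 each). ZNF664 averaged 94.1 ± 7.31, 93.7 ± 8.28, 97.2 ± 9.09 and 94.04 ± 2.43 TPM in those groups, against 81.8 ± 12.4 TPM in control cells. The other 6 of the 10 most abundant members were ZNF511 (42.3 TPM), ZNF384 (41.9 TPM), ZNF740 (38.2 TPM), ZNF410 (35.9 TPM), ZNF146 (35.7 TPM) and ZNF638 (35.1 TPM), and in this order 4 of the 5 steps between neighbours were smaller than the SD over libraries of either gene. ZNF511 and ZNF410 share 59.9% and 95.7% of their 31-base words with other genes. ZNF384 shares 47.00%, nearly all with a gene known only by its identifier. The levels of these 3 genes are uncertain for that reason.

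**Figure D1:**
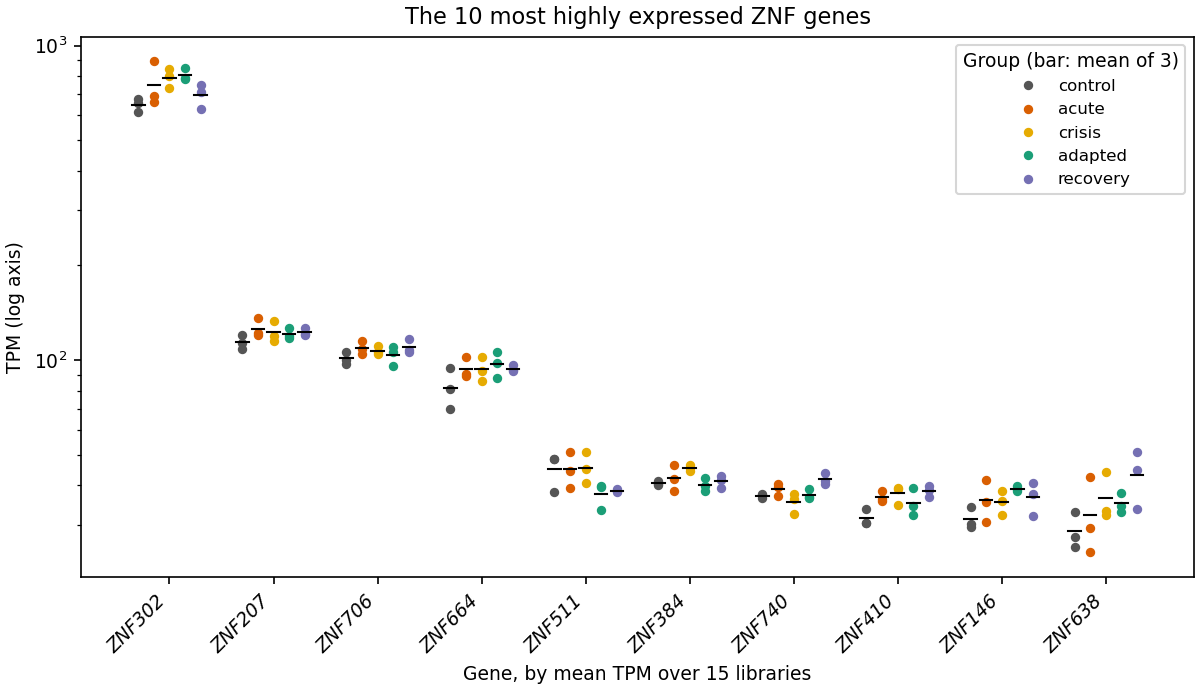
TPM on a log axis of the 10 most highly expressed ZNF genes, with 1 point per library coloured by group and a bar at the mean of 3 libraries. ZNF302 lies near 738 TPM, ZNF207, ZNF706 and ZNF664 between 92.2 and 121 TPM, and the 6 others between 35.1 and 42.3 TPM as means over all 15 libraries.

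The choice of members rested on the mean over all libraries, and its edge fell within the spread of single genes. Just inside were ZNF317, ZNF268 and ZNF688 with means of 10.23, 10.22 and 10.19 TPM, and just outside were ZNF397, ZNF480 and ZNF277 with 9.91, 9.90 and 9.82 TPM.

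No member was called in any of the 6 comparisons or in the moderated F test over the 5 groups. The comparison of acute with control cells sets 2 d of doxycycline, and so of induced CCNE1, against none. No group had doxycycline without the cDNA, so effects of the drug and of cyclin E1 cannot be told apart. Control cells were taken at day 0, so in crisis, adapted and recovery cells time in culture cannot be told apart from induction either. Of the 86 members 0 passed, beside 0.049% of all genes tested. At an unadjusted limma p under 0.05, 7 members were higher and 2 lower, which is 8.14% and 2.33% of the members, beside 7.52% and 1.67% of all genes tested. All 3 acute libraries lay above all control libraries for 9 members and below them for 3, beside 9.83% and 2.35% of all genes. The median log2 fold change was 0.095 over the members and 0.063 over all genes. The count of 7 became 3, 4 and 13 without control library 1, 2 or 3, and 4 without acute library 1. In the same fits the count over all 10196 genes went from 767 to 398, 478 and 1491, and to 450.

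In crisis cells, taken during the slowed proliferation that followed sustained induction, more members were higher than lower. Again 0 members were called, beside 0.0392% of all genes. With limma, 14 members were higher and 0 lower than in control cells at an unadjusted p under 0.05 (16.3% of members), beside 9.32% and 1.83% of all genes. All crisis libraries lay above all control libraries for 17 members and below them for 1, beside 13.0% and 2.5% of all genes. The median log2 fold change was 0.10 over the members, where 66 of 86 were above 0, and 0.076 over all genes. The count of 14 became 9 and 8 without control library 1 or 2, and 7 without crisis library 3. In the same fits the count over all 10196 genes went from 950 to 612 and 615, and to 735.

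Adapted and recovery cells, the later groups, differed from control in both directions. In adapted cells 0 members were called, beside 0.049% of all genes. At an unadjusted limma p under 0.05, 9 members were higher and 6 lower, beside 11.4% and 9.01% of all genes. All adapted libraries lay above all control libraries for 11 members and below for 7, beside 13.5% and 10.5% of all genes. In recovery cells 0 members were called, beside 0.0392% of all genes. There 20 members were higher and 6 lower at an unadjusted limma p under 0.05, beside 19.7% and 8.88% of all genes. All recovery libraries lay above all control libraries for 18 members and below for 8, beside 18.8% and 10.1% of all genes. The medians were 0.10 in adapted and 0.14 in recovery cells over the members, and 0.051 and 0.081 over all genes. These shares of members lay near those of all genes tested. For adapted cells the count of 9 became 4 and 16 without control library 1 or 3, and 16 and 3 without adapted library 1 or 2. In the same fits the count over all 10196 genes went from 1165 to 523 and 1955, and to 1248 and 530. The count of 6 became 1 and 10 without control library 1 or 3, and 2 without adapted library 3. There the count over all genes went from 919 to 543 and 1148, and to 535. For recovery cells the count of 20 became 11 without control library 1 or 2 and 9 without recovery library 3, and the count of 6 became 10 without control library 3. Over all genes 2011 became 1034 and 1227 without control library 1 or 2 and 1068 without recovery library 3. The 905 lower genes became 1130 without control library 3.

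Between the groups after induction few members stood apart. In adapted against acute cells 0 members were called, beside 0.0196% of all genes. At an unadjusted limma p under 0.05, 1 member was higher and 3 lower, beside 1.36% and 4.89% of all genes. All adapted libraries lay above all acute libraries for 1 member and below for 6, beside 3.23% and 8.51% of all genes. In recovery against adapted cells 0 members were called, beside 0.0294% of all genes. There 1 member was higher and 1 lower at an unadjusted limma p under 0.05, beside 4.98% and 2.06% of all genes. All recovery libraries lay above all adapted libraries for 5 members and below for 4, beside 9.07% and 3.33% of all genes. The medians were -0.014 and 0.035 over the members. By the F test 0 members were called and 8 had an unadjusted limma p under 0.05, beside 0.0687% and 17.1% of all genes.

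**Figure D2:**
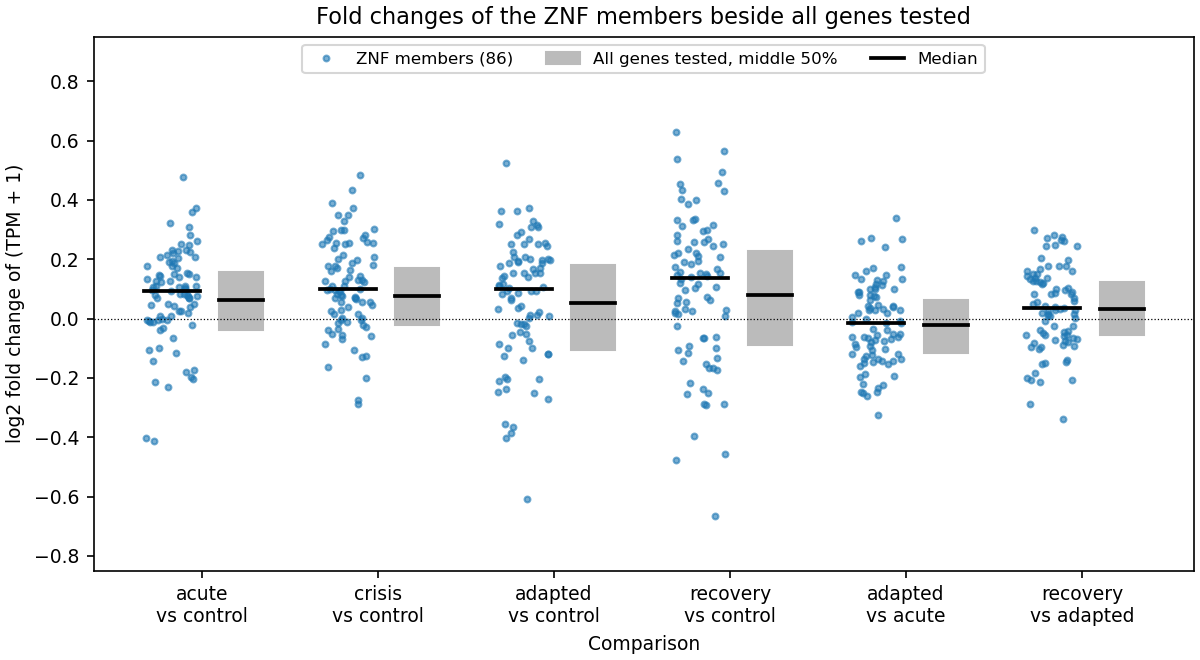
Log2 fold change of (TPM + 1) of the 86 ZNF members (points) in the 6 comparisons, with their median as a black bar, beside the middle 50% of all 10196 genes tested (grey) and their median. Member medians run from -0.014 to 0.14, and no member lies beyond 0.67 in either direction.

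Over the 5 groups the means of a member lay about as close as those of other genes. The highest group mean was a median of 1.22-fold the lowest, beside 1.21-fold over all genes tested. Only ZNF580, ZNF827 and ZNF638 reached 1.5-fold (3.49% of members, beside 5.77% of all genes), and 54 members stayed under 1.25-fold. The lowest mean fell in control cells for 46 members (53.5%, beside 43.0% of all genes), and the highest in recovery cells for 30 (34.9%, beside 31.7%) and in crisis cells for 21. Replicate libraries had a median coefficient of variation of 9.33% to 12.2% over the members by group. This is the spread of single libraries, whereas the 1.22-fold sets the highest against the lowest of 5 group means.

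The members with the smallest p over the 5 groups were ZNF580, ZNF827, ZNF593, ZNF581, ZNF791 and ZNF512, with F test adjusted p of 0.146 to 0.264 by limma. ZNF827 (chromosome 4, 145757627 to 145938823, minus strand), which brings the NuRD complex to telomeres maintained by recombination, had the highest log2 fold change of all members in crisis and in recovery cells. It had 8.21, 9.27 and 8.07 TPM in control cells, 10.4, 10.2 and 13.6 TPM in acute cells, 10.8, 12.5 and 13.7 TPM in crisis cells, 10.8, 13.2 and 9.84 TPM in adapted cells and 12.3, 14.3 and 14.5 TPM in recovery cells. Every library after induction lay above every control library. Its log2 fold change against control was 0.37 ± 0.14 for acute, 0.49 ± 0.14 for crisis, 0.36 ± 0.14 for adapted and 0.63 ± 0.14 for recovery cells (SE), with limma adjusted p of 0.461, 0.228, 0.162 and 0.0395. The value for recovery cells would pass a threshold of 0.05, as 1.11% of all genes tested did, but not that of 0.01. Its transcript shares almost no 31-base word with other genes, and its GC content, 47.9%, is close to the median of all genes tested.

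ZNF580 (chromosome 19, 55635016 to 55643470, plus strand) had the lowest log2 fold change of the members in each comparison with control. It had 31.9, 23.6 and 23.5 TPM in control cells, 21.3, 15.1 and 22.5 TPM in acute cells, 19.7, 22.1 and 21.7 TPM in crisis cells, 16.3, 17.3 and 16.6 TPM in adapted cells and 14.1, 14.6 and 20.1 TPM in recovery cells. No library after induction reached the lowest control library. Its log2 fold change against control was -0.41 ± 0.15 for acute, -0.29 ± 0.15 for crisis, -0.61 ± 0.15 for adapted and -0.67 ± 0.15 for recovery cells (SE), with limma adjusted p of 0.474, 0.497, 0.0714 and 0.0479. Its GC content was 69.2%, below only that of ZNF787 among the members. After the GC trend of each library was removed the value for recovery cells was -0.26 with an adjusted p of 0.433 by limma.

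ZNF581 overlaps ZNF580 on the same strand, by 8012 bp as annotated, and is the other member of this pair at the end of chromosome 19. It had 18.7, 13.4 and 12.9 TPM in control cells, 10.1, 10.7 and 12.1 TPM in acute cells, 14.8, 14.3 and 11.4 TPM in crisis cells, 13.9, 11.4 and 11.1 TPM in adapted cells and 10.6, 9.17 and 11.4 TPM in recovery cells. Acute and recovery libraries lay below all control libraries, and crisis and adapted libraries overlapped with them. The log2 fold change of ZNF581 was -0.40 ± 0.15 in acute and -0.48 ± 0.15 in recovery cells against control, with limma adjusted p of 0.458 and 0.0788. Of the 31-base words of ZNF580, 10.9% also occur in ZNF581, so that reads of the pair are not fully separate.

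ZNF593, whose yeast relative takes part in the maturation of the large ribosomal subunit, had 24.6, 20.9 and 19.3 TPM in control cells, 17.7, 18.2 and 21.3 TPM in acute cells, 17.6, 21.2 and 17.3 TPM in crisis cells, 15.7, 16.5 and 17.2 TPM in adapted cells and 17.5, 15.9 and 13.2 TPM in recovery cells. Adapted and recovery libraries lay below all control libraries. Its log2 fold change against control was -0.37 ± 0.12 in adapted and -0.46 ± 0.12 in recovery cells, with limma adjusted p of 0.131 and 0.0638. It overlaps its antisense gene ZNF593OS, with which it shares 90.8% of its 31-base words, and no source used here says whether reads were assigned by strand. The 2 genes therefore cannot be told apart with certainty.

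ZNF791, a KRAB member, was highest in acute cells. It had 8.49, 10.7 and 11.03 TPM in control cells, 15.98, 11.97 and 15.4 TPM in acute cells, 11.4, 11.97 and 13.7 TPM in crisis cells, 11.9, 9.004 and 13.3 TPM in adapted cells and 14.4, 12.3 and 14.1 TPM in recovery cells. The log2 fold change of ZNF791 was 0.48 ± 0.15 in acute cells, the highest of the members in that comparison, and 0.40 ± 0.15 in recovery cells, with limma adjusted p of 0.340 and 0.104, and adapted libraries overlapped with control. ZNF512 had 12.7, 10.7 and 10.1 TPM in control cells, 12.9, 16.2 and 11.6 TPM in acute cells, 13.9, 15.99 and 14.2 TPM in crisis cells, 15.8, 19.98 and 13.9 TPM in adapted cells and 13.9, 13.8 and 19.7 TPM in recovery cells. Crisis, adapted and recovery libraries of ZNF512 lay above all control libraries, with a log2 fold change of 0.52 ± 0.16 in adapted cells, the highest of the members there, and a limma adjusted p of 0.105. ZNF512 shares 37.2% of its 31-base words with a gene known only by its identifier.

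**Figure D3:**
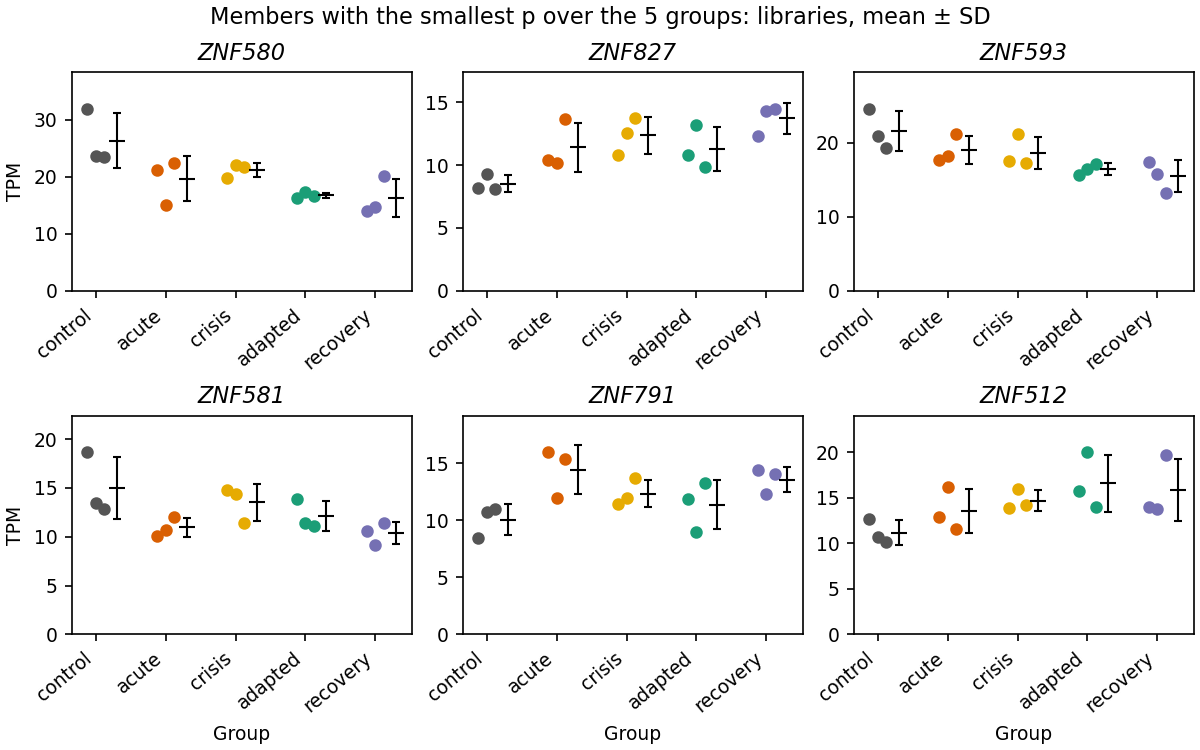
TPM of the 6 members with the smallest F test p, by group in order of time, with 1 coloured point per library and the mean ± SD of 3 libraries in black. ZNF827 lies between 12.3 and 14.5 TPM in recovery cells, against 8.07 to 9.27 TPM in control cells, and ZNF580 between 14.1 and 20.1 TPM in recovery cells, against 23.5 to 31.9 TPM in control cells.

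In acute cells ZNF195 was higher by 0.31 ± 0.13 on the log2 scale and ZNF787 had -0.21 ± 0.15, with limma adjusted p of 0.509 and 0.648. In crisis cells ZNF800 had 0.35 ± 0.14 and ZNF512 0.37 ± 0.16 (adjusted p 0.383 and 0.405 by limma), and only ZNF580 stood below every control library. In adapted cells ZNF33A had 0.33 ± 0.14, ZNF48 -0.40 ± 0.18 and ZNF444 -0.38 ± 0.14, with limma adjusted p of 0.209, 0.220 and 0.162. The next highest member after ZNF827 in recovery against control cells was ZNF638, with 33.5, 44.9 and 51.2 TPM in recovery cells, against 25.5, 27.4 and 32.98 TPM in control cells, and a log2 fold change of 0.57 ± 0.18 with an adjusted p of 0.0853 by limma. ZNF638 is an RNA-binding protein that works with the HUSH complex to silence unintegrated retroviral DNA. ZNF84, a KRAB member, had 17.4, 20.99 and 26.6 TPM in recovery cells, against 12.9, 13.2 and 17.3 TPM in control cells, a log2 fold change of 0.54 ± 0.20 with an adjusted p of 0.107 by limma.

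Between later groups, ZNF121 was the 1 member whose adapted libraries all lay above acute ones, with 22.9, 27.2 and 26.2 TPM in adapted cells, against 22.6, 20.6 and 20.7 TPM in acute cells and a log2 fold change of 0.24 ± 0.11. ZNF875, ZNF358 and ZNF593 had the lowest log2 fold changes among the 6 members that lay below, -0.26 ± 0.12, -0.22 ± 0.16 and -0.19 ± 0.12. After doxycycline was withdrawn, ZNF714 had 16.3, 15.7 and 12.7 TPM in recovery cells, against 19.5, 20.9 and 16.9 TPM in adapted cells, and its log2 fold change of -0.34 ± 0.15 was the lowest among members whose libraries did not overlap there. ZNF3 had -0.21 ± 0.11. ZNF770, ZNF462 and ZNF271P were higher in all recovery libraries than in adapted ones, by 0.30 ± 0.18, 0.28 ± 0.13 and 0.18 ± 0.13. None of these passed, with limma adjusted p of 0.659 to 0.910.

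Of the 3 members tied to ribosomes, ZNF622, a late maturation factor of the large subunit, had the steadiest group means of all members, 27.5 ± 3.82, 28.9 ± 1.17, 27.5 ± 1.03 and 27.8 ± 0.661 TPM in acute, crisis, adapted and recovery cells, against 27.4 ± 0.333 TPM in control cells (SD, n = 3 each). ZNF598, the ubiquitin ligase that marks collided ribosomes, averaged 20.1 ± 1.98, 21.5 ± 1.59, 18.2 ± 1.58 and 18.8 ± 2.61 TPM in those groups, against 21.2 ± 3.29 TPM in control cells. Together with ZNF593, 0 of the 3 were called in any comparison.

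Of the 5 members that bind RNA or belong to splicing complexes, 0 were called. ZNF326, which links RNA polymerase II to splicing, averaged 31.5 TPM over all libraries, ZNF106 27.9, ZNF830 11.97 and ZNF346, which binds double-stranded RNA, 11.1 TPM. ZNF106 averaged 26.6 ± 1.27, 29.9 ± 1.22, 28.6 ± 1.33 and 29.2 ± 2.22 TPM in acute, crisis, adapted and recovery cells, against 24.9 ± 2.02 TPM in control cells, and ZNF346 had unequal adapted replicates, with 10.00, 15.8 and 13.8 TPM. ZNF451, a SUMO ligase that helps to resolve trapped type II topoisomerase, had 14.9, 14.01 and 19.1 TPM in recovery cells, against 11.4, 14.2 and 15.4 TPM in control cells, and the groups overlapped. ZNF385A, a cofactor of p53, had 11.3, 11.02 and 10.98 TPM in recovery cells, against 14.2, 14.02 and 12.05 TPM in control cells, with no overlap and a log2 fold change of -0.25 ± 0.11 (adjusted p 0.142 by limma). ZNF668, also tied to p53, averaged 10.9 TPM and had unequal acute replicates, with 9.03, 9.31 and 16.2 TPM.

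Members of chromatin complexes gave ZNF827 and no other with a limma adjusted p under 0.05. ZNF217, a partner of CoREST and CtBP, averaged 20.3 TPM, ZNF644, a partner of the G9a and GLP methyltransferases, 17.7 TPM, ZNF532 23.4 TPM and ZNF592 10.8 TPM. ZNF592 had 8.75, 9.80 and 10.1 TPM in recovery cells, against 11.3, 11.7 and 9.78 TPM in control cells, where the groups overlapped. ZNF462 had 13.4, 15.6 and 13.03 TPM in recovery cells, against 10.2, 11.00 and 12.8 TPM in adapted cells, with no overlap.

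Among 9 members that bind promoters or DNA directly, 0 were called. ZNF410, which is known for activating CHD4, had 30.5, 30.5 and 33.6 TPM in control cells, 35.6, 36.2 and 38.3 TPM in acute cells, 34.7, 39.3 and 39.1 TPM in crisis cells, 32.2, 39.2 and 34.4 TPM in adapted cells and 39.8, 36.8 and 38.8 TPM in recovery cells. Acute, crisis and recovery libraries of ZNF410 lay above all control libraries, at log2 fold changes of 0.22 ± 0.09, 0.25 ± 0.09 and 0.28 ± 0.09, with limma adjusted p of 0.513, 0.327 and 0.0853. CHD4 averaged 167 ± 6.08, 164 ± 2.81, 177 ± 12.2 and 169 ± 11.5 TPM in acute, crisis, adapted and recovery cells, against 149 ± 8.30 TPM in control cells (SD, n = 3 each), with limma adjusted p of 0.543, 0.504, 0.115 and 0.135. Its highest mean was in adapted cells, where ZNF410 overlapped with control. ZNF281, a relative of ZNF148, had 13.5, 12.4 and 13.9 TPM in control cells, 16.97, 14.3 and 14.2 TPM in acute cells, 14.3, 15.5 and 18.5 TPM in crisis cells, 14.5, 15.99 and 16.03 TPM in adapted cells and 16.3, 16.95 and 19.9 TPM in recovery cells, and all 12 libraries after induction lay above the 3 control libraries, with a log2 fold change of 0.39 ± 0.12 in recovery cells (adjusted p 0.0738 by limma). ZNF148 averaged 19.6 ± 2.92 TPM in recovery cells, against 14.3 ± 2.18 TPM in control cells. ZNF143, an activator of promoters, averaged 18.8 TPM, ZNF24 26.1, ZNF395 21.7, ZNF263 16.2 and ZNF76, the close relative of ZNF143, 10.4 TPM. ZNF384, which binds runs of A and T, averaged 45.5 ± 0.974 TPM in crisis cells, against 40.6 ± 0.679 TPM in control cells, without overlap (log2 fold change 0.16 ± 0.08, adjusted p 0.483 by limma), and 47.00% of its 31-base words are shared with other genes, so the value is uncertain.

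KRAB members had higher medians than members without KRAB letters in each comparison with control. Their median log2 fold change was 0.16 for acute, 0.18 for crisis, 0.15 for adapted and 0.15 for recovery cells against control, where the 63 members without KRAB letters had 0.082, 0.096, 0.041 and 0.12. At an unadjusted limma p under 0.05, 2, 4, 2 and 6 of the 18 were higher and 0 were lower in each of these comparisons, which is 11.1%, 22.2%, 11.1% and 33.3% higher, beside 7.52%, 9.32%, 11.4% and 19.7% of all genes tested. With the GC correction 1, 2, 2 and 1 were higher, and 1 was lower, in recovery cells. The difference between the 2 classes was not tested, and all of these comparisons share the same control libraries. The median GC content was 43.5% in KRAB members and 46.4% in the others, and its part in the difference was not tested. After the GC trend of each library was removed, the medians were 0.074, 0.10, 0.068 and 0.060 in KRAB members and 0.020, 0.019, 0.029 and 0.015 in the others, in the same order of comparisons. Members on chromosome 19 had medians of 0.11, 0.11, 0.14 and 0.13 in the same comparisons, and members elsewhere 0.093, 0.096, 0.094 and 0.14.

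Neighbours on chromosome 19 gave both directions. ZNF787 and ZNF444, separated by 11303 bp near the end of the long arm, had -0.40 and -0.29 in recovery cells on the log2 scale, and GC contents of 70.4% and 68.7%. ZNF121 and ZNF561, separated by 20175 bp on the short arm, had 0.16 and 0.26, and GC contents of 39.8% and 42.8%. On chromosome 12, ZNF84 and ZNF268 lie 118104 bp apart and had 0.44 and -0.0045 in crisis cells.

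Log2 fold changes against control were lower in members with a higher transcript GC content, and likewise over all genes tested. Members ranged from 35.6% GC in ZNF148 to 70.4% in ZNF787, with a median of 44.6%, beside 47.3% for all genes tested. Spearman's rank correlation between GC content and log2 fold change over the 86 members was -0.59 for acute, -0.49 for crisis, -0.67 for adapted and -0.69 for recovery cells against control, and -0.52, -0.31, -0.65 and -0.68 over all genes tested. The points are genes of the same libraries and are not independent. Of the 46 members under 45% GC, 44 were above 0 in recovery cells and 2 below, with a median of 0.23 on the log2 scale. Of the 23 members of 55% GC or more, 6 were above 0 and 17 below, with a median of -0.17. The 6 members lower in adapted cells and the 6 lower in recovery cells at an unadjusted limma p under 0.05 were all among these 23.

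Single libraries of a group differed in the same trend. Spearman's rank correlation between GC content and the deviation of each member from its mean was 0.70, 0.63 and -0.21 in control libraries 1, 2 and 3, and -0.55, 0.03 and 0.60 in acute libraries. Crisis libraries had 0.42, 0.63 and -0.60, adapted libraries 0.0019, -0.31 and -0.51, and recovery libraries -0.08, -0.46 and -0.59. Control library 3 thus stood apart from the other 2, and crisis library 3 from the others of its group. The acute libraries were spread about evenly from -0.55 to 0.60. The part of this trend in the differences of the members was not tested.

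**Figure D4:**
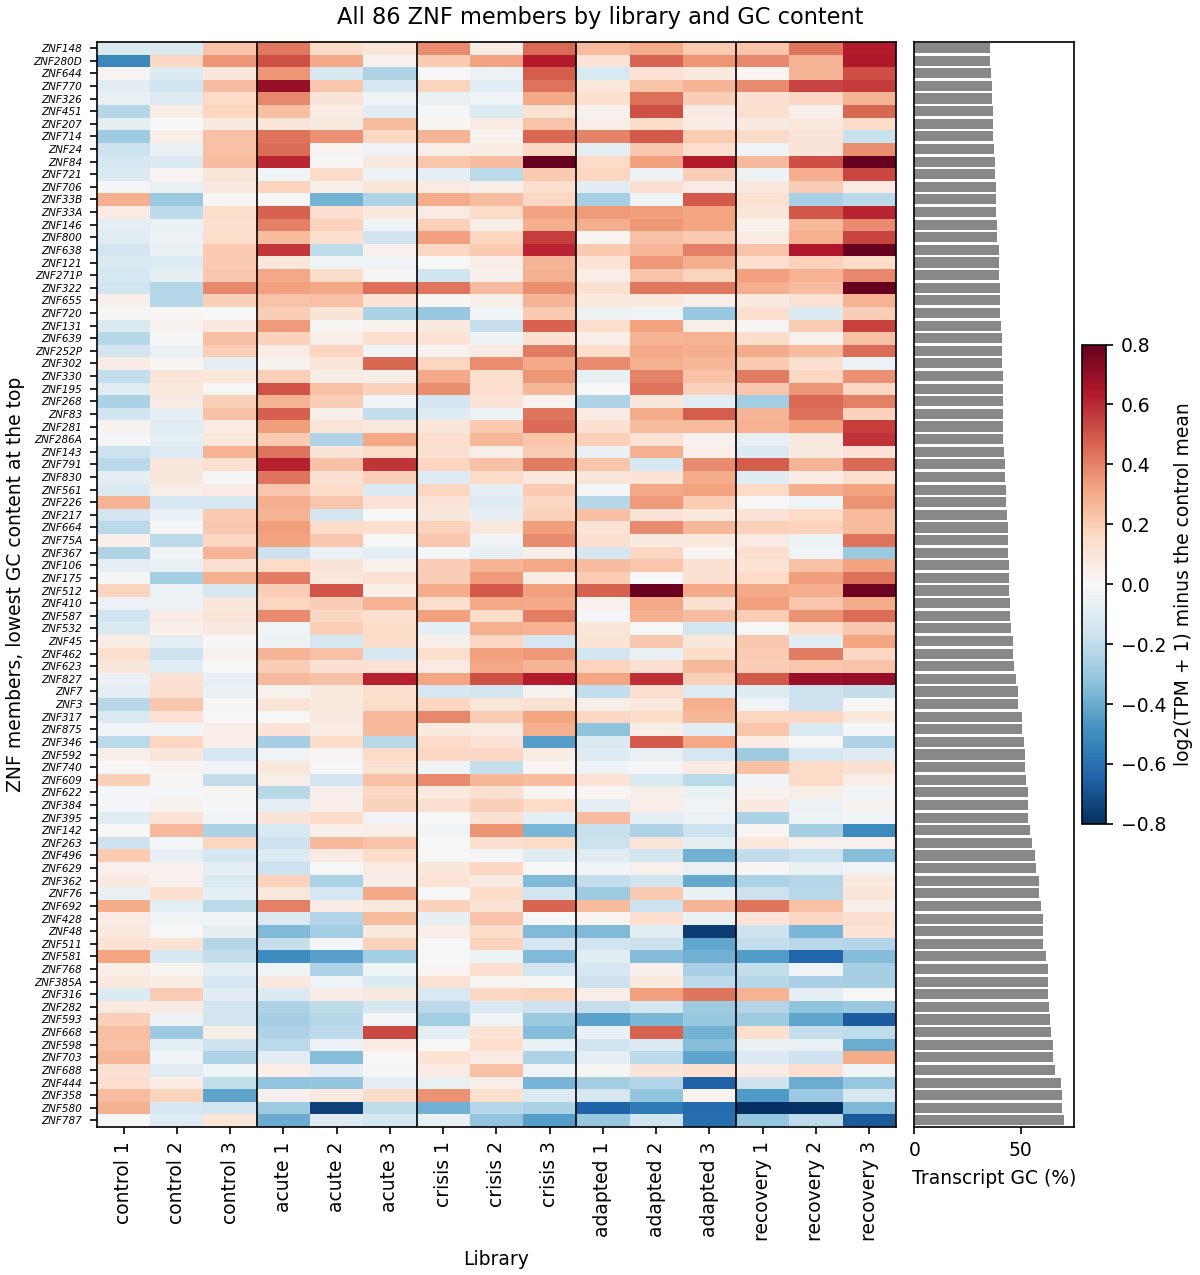
All 86 ZNF members in rows, ordered from the lowest GC content at the top to the highest at the bottom, in 15 libraries by group. Colour gives log2(TPM + 1) minus the mean of the 3 control libraries, with values beyond 0.8 in either direction shown at the end of the scale, and bars give the transcript GC content in percent. Red prevails in the upper rows and blue in the lower rows of recovery library 3, and the reverse holds in part for control library 1.

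When the GC trend of each library was removed by a loess fit, the medians of the members were nearer to 0. The fit also takes out the typical level of each library, so a median near 0 over all genes is built in. The median log2 fold changes of the members against control became 0.025 for acute, 0.044 for crisis, 0.032 for adapted and 0.037 for recovery cells. Over all genes with a GC value they were -0.0016, -0.00055, 0.0040 and 0.0012 in the same order. Members at an unadjusted limma p under 0.05 numbered 2 higher and 1 lower for acute, 6 and 0 for crisis, 5 and 1 for adapted, and 6 and 4 for recovery cells. Of all genes with a GC value, 4.08% and 3.97% were higher and lower for acute, 5.44% and 6.08% for crisis, 6.41% and 7.62% for adapted, and 7.85% and 8.45% for recovery cells. With TPM rescaled by median-of-ratios factors they numbered 2 higher and 3 lower, 3 and 4, 7 and 7, and 15 and 12 in these comparisons, beside 3.56% and 4.46%, 3.56% and 5.26%, 7.91% and 13.1%, and 11.0% and 15.0% of all genes. ZNF827 kept a log2 fold change of 0.54 in recovery cells after the GC correction, with a limma adjusted p of 0.0561. After it ZNF444 had -0.02 in adapted cells and ZNF787 -0.02 in acute cells.

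**Figure D5:**
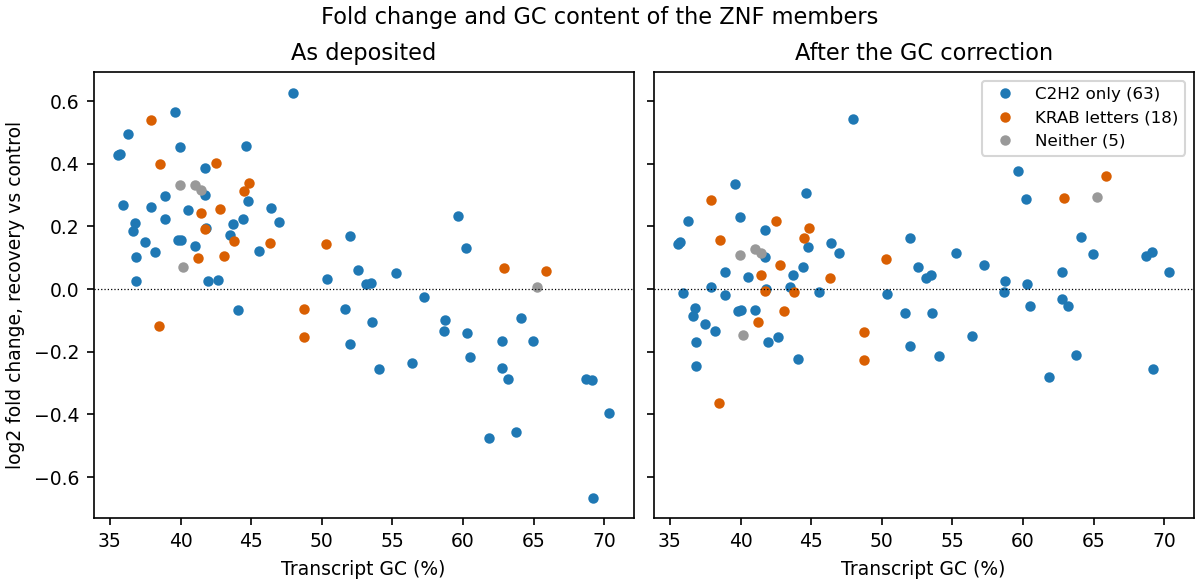
Log2 fold change of recovery against control cells and transcript GC content in percent for the 86 members, as deposited (left) and after the GC correction (right), coloured by protein class. Spearman's rank correlation over the members is -0.69 on the left and 0.09 on the right, and ZNF827 remains the highest point in both. The correction takes out the trend with GC content, so a value near 0 on the right is built in.

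Genes that work with KRAB zinc finger proteins were examined as a list of 25, of which 23 were tested. None was called, and at an unadjusted limma p under 0.05, 6 were higher and 0 lower for acute, 3 and 0 for crisis, 10 and 1 for adapted, and 7 and 3 for recovery cells. Of all genes tested, 7.52%, 9.32%, 11.4% and 19.7% were higher and 1.67%, 1.83%, 9.01% and 8.88% lower. With the GC correction the list gave 4 higher and 0 lower, 3 and 0, 6 and 0, and 3 and 2. Its median log2 fold change in recovery cells was 0.17, and 0.0055 with that correction. TRIM28, the corepressor itself, averaged 566 ± 44.8 TPM in recovery cells, against 728 ± 62.4 TPM in control cells (SD, n = 3 each), a log2 fold change of -0.36 ± 0.10 with a limma adjusted p of 0.0672. SETDB1, the methyltransferase it recruits, averaged 21.3 ± 1.29 TPM in recovery cells, against 20.1 ± 1.59 TPM in control cells. ATF7IP, the partner of SETDB1, had 0.48 ± 0.11 in adapted cells (adjusted p 0.0534 by limma), and ZMYM2 had 0.86 ± 0.21 in recovery cells (adjusted p 0.0523 by limma). DNMT1, the maintenance DNA methyltransferase, had 0.34 ± 0.09 in adapted and 0.32 ± 0.09 in recovery cells, with limma adjusted p of 0.0831 and 0.0738.

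Relatives that the choice left out were counted in the same way. Of 104 ZNF genes of 5 to under 10 TPM, 0 were called in any comparison, and 13 were higher and 6 lower in recovery cells at an unadjusted limma p under 0.05, or 12.5% and 5.77%, with a median log2 fold change of 0.12. Of 57 genes named ZBTB, ZSCAN, ZKSCAN, ZFP, KLF or SP, 0 were called, and 15 were higher and 5 lower, or 26.3% and 8.77%, with a median of 0.17. Of all genes tested, 19.7% were higher and 8.88% lower. With the GC correction each list gave 5 higher and 2 lower, with medians of -0.0057 for the 104 and 0.054 for the 57. Among the 57, KLF7 had 0.42 ± 0.12, ZBTB18 0.41 ± 0.12 and ZFP90 0.37 ± 0.12 in recovery cells, with limma adjusted p of 0.0676, 0.0710 and 0.0829. ZFP36, which decays AU-rich mRNAs and has another kind of zinc finger, had -0.51 ± 0.16 in crisis and -0.54 ± 0.16 in adapted cells, with limma adjusted p of 0.286 and 0.105.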

How the data were processed

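RNA-seq libraries of 15 RPE1-hTERT cell samples, 3 in each of 5 groups taken from the sample labels, were analysed. The authors ran kallisto against hg38 on single-end reads and deposited 1 table of TPM (transcripts per 1000000) per gene. No source used here gives the annotation release or the strand setting. TPM is scaled to 1000000 within a library, so a gain in abundant genes lowers all others, and depth is lost. The same table holds log2 fold changes and adjusted p-values of the authors' own DESeq2 comparisons of each later group with control, and these were not used. No count model was run, since TPM values are not counts.

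Of 60603 entries, 45 pseudoautosomal copies were dropped, and 60261 of the 60558 genes matched GENCODE 44. Tests were run with limma 3.58.1 in R 4.3.3 on log2(TPM + 1), a scale that understates the change of low genes, for the 10196 genes that averaged 5 TPM or more. All 15 libraries entered a model with group as its only term and a variance trend, with prior degrees of freedom of 6.63 and Benjamini-Hochberg adjustment over all genes tested. On simulated data for adapted against control cells, 48 of 50 genes lowered and 43 of 50 raised by 1 on the log2 scale were called, 17 and 23 of 50 at 0.5, and 1 of 9996 unchanged genes. The simulation drew each gene independently with normal noise and no trend of a whole library. It also shifted more genes than were called in the data, which eases the adjusted threshold. These shares may therefore overstate what the data could detect. Replicates are separate adaptations of 1 clone, so p-values measure the spread between these.

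Proteins were translated from GENCODE canonical transcripts, in place of the RefSeq proteins first planned. Shared 31-base words were counted between annotated transcripts. GC trends were removed per library by loess with a span of 0.3. Genes were named by rule: the 10 highest members, up to 3 higher and 3 lower members with no overlap in each comparison, the 6 smallest F test p, members at the edge of 10 TPM, members with a listed role, and up to 4 genes of each other list. The members and lists were chosen with earlier results of these data known. Alternatives covered the pseudocount, the filter, scaling, GC content, the variance trend, the libraries fitted, a replicate block and each library left out.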

Additional observations from a re-analysis of the deposited data

How the results depend on the processing

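No member passed an adjusted p under 0.01 by limma in any of 6 comparisons or in the F test under any alternative. Of 512 values of named genes, 0 reversed direction or passed. These genes were picked as the largest changes without overlap in the same libraries, so most alternatives could not reverse them. Only median-of-ratios scaling and the GC correction could have done so, and the count does not show that the values are stable. At an adjusted p under 0.05, 2 members passed in recovery against control cells, ZNF827 (higher) and ZNF580 (lower), as did 113 of all 10196 genes tested (1.11%). With median-of-ratios scaling the median log2 fold change of the members against control was 0.029 for acute, 0.018 for crisis and 0.060 for recovery cells. With the GC correction, alone or with the replicate block, it was 0.025 for acute, 0.044 for crisis, 0.032 for adapted and 0.037 for recovery cells. Both settings bring the median over all genes near 0 by construction, and the part of this in the members was not tested. With each library left out in turn, the median ranged from 0.053 to 0.14 for acute, 0.086 to 0.16 for crisis, 0.070 to 0.15 for adapted and 0.088 to 0.15 for recovery cells against control, from -0.068 to 0.017 for adapted against acute cells and from 0.016 to 0.073 for recovery against adapted cells. The highest values in acute, crisis and adapted cells came without control library 3. Calls stayed at 0. The smallest adjusted p of a member by limma was 0.0395, in recovery against control cells. Each fit that left out a library kept only the F test and the comparisons of that library's group. Over these unlike sets of tests the smallest value ran from 0.0236 without control library 3 to 0.197 without crisis library 2. Fits without an acute, crisis or adapted library held no comparison of recovery with control cells, so their values cannot be set beside 0.0395. When 1 finger pattern was asked for without the KRAB letters, the median of that class was 0.096 for acute, 0.10 for crisis and 0.095 for adapted cells. Read on the gene's strand only, GGGCGG was in 42.5% and CCGGAAG in 21.9% of member windows.

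Replicate numbers were fitted as a block. Correlations of same-numbered libraries ran from -0.386 to 0.340, and no comparison had all 3 pairs over 0.1. In recovery against adapted cells they were 0.196, 0.044 and 0.213. Such correlations cannot show whether libraries of the same number came from the same adaptation. With the replicate block 0 members were called in every comparison, and the smallest adjusted p by limma was 0.0335. Members at an unadjusted limma p under 0.05 in recovery against control cells were 18 higher and 6 lower, beside 2050 and 902 of all 10196 genes. Of 6 libraries, 0 to 5 were closest to their own number by comparison. TPM keeps no depth, so the counting error of members near 10 TPM is unknown.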
